A study of Mus musculus with 16 samples.

Results

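Claudins are the membrane proteins that form the strands of tight junctions, the seals between neighbouring epithelial or endothelial cells. Their extracellular loops meet those of the next cell, and which claudins a cell makes sets which ions and molecules pass between cells. Some members tighten the seal and others form pores. In the stomach the best known member is claudin-18, made from a stomach-type first exon, which limits the leak of acid between the cells of the gastric lining. Transcripts of 10 claudin genes were followed: Cldn1, Cldn2, Cldn3, Cldn4, Cldn5, Cldn7, Cldn10, Cldn12, Cldn18 and Cldn23. They were taken by symbol from a table of 24964 gene symbols that holds 32 claudin symbols in all, and all 10 passed the filter on low counts.

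The libraries were made from RNA of a 4 mm biopsy of the corpus, lesser curvature, of stomachs of female mice aged 8 weeks. Mice were wild type (WT) on C57BL/6 or carried the TTPΔARE allele on congenic C57BL/6, and each genotype was studied in the conditions A and S. TTP, an RNA-binding protein encoded by Zfp36, speeds the breakdown of transcripts that carry AU-rich elements, and the TTPΔARE allele has lost such an element of its own. Condition A is gastric inflammation induced by adrenalectomy, the removal of the adrenal glands. The treatment label of S is the name of a metaplasia, spasmolytic polypeptide-expressing metaplasia (SPEM), in both genotypes, with no further word on an operation, so S is used only as a group name. Each combination of genotype and condition had 4 libraries, called TTP-A, TTP-S, WT-A and WT-S 1 to 4 here. A library held between 17453930 and 25849472 counts. The labels do not say whether each library came from its own mouse, so p-values measure the spread between these libraries. Zfp36, the gene of the allele, was at 55.1 to 88.6 CPM (counts scaled to a common library total) in the 8 WT libraries and at 110 to 131 CPM in the 8 TTPΔARE libraries.

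Some libraries differed in ways that moved with the groups. GC-rich transcripts ran high and GC-poor ones low in a pair of libraries, WT-A 3 and WT-A 4. Across genes, which are not independent replicates, the rank correlation of GC content with the deviation from the median library was 0.72 and 0.74 in this pair and at most 0.30 in size in the other 14. Values from those 14 libraries are therefore given beside the claudin and junction calls of WT-A. Marker transcripts of squamous forestomach epithelium, 15 genes such as Krt5 and Krt13, summed to 63.8, 69.5, 353 and 142 CPM in WT-S 1 to 4 and to 154, 1413, 783 and 176 CPM in WT-A 1 to 4. The sums were 738, 173, 149 and 192 CPM in TTP-S and 149, 234, 80.3 and 422 CPM in TTP-A. Up to 3 of these markers had no count in a WT-S library and up to 7 in a TTP-A library, and none was at 0 in WT-A or TTP-S. Of 14 squamous markers tested, all were positive in WT-A against WT-S, with a median log2 of 2.80, and 2 were called higher, beside 9.8% of all genes tested. In the 14 libraries 4 were called, beside 10.5% of all genes in either direction. In bulk tissue, fewer cells of a type and less RNA per cell cannot be told apart.

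Promoter sequence is shown for the claudins that rose in WT-A and for both annotated starts of Cldn18, because one number per gene cannot separate its alternative first exons. Each sequence is the 250 bases before an annotated start (RefSeq, GRCm38.p6), 5′ to 3′ on the strand of the gene. The table of starts held 14 windows for 9 of the 10 genes, all but Cldn23. Capitals mark matches, on either strand, to TATAAA (the TATA box), GGGCGG (the GC box), TGANTCA (the AP-1 motif), CAGGTG (an E-box) or the glucocorticoid response element, searched as AGAACA and TGTTCT with 3 bases between them. The windows are chr5:134946935-134947184 (minus strand) for Cldn4, chr16:18776597-18776846 (plus) for Cldn5, chr11:69964529-69964778 (plus, the first of 2 starts) for Cldn7, and chr9:99717268-99717517 and chr9:99710064-99710313 (minus) for the upstream and the downstream start of Cldn18.
Cldn4: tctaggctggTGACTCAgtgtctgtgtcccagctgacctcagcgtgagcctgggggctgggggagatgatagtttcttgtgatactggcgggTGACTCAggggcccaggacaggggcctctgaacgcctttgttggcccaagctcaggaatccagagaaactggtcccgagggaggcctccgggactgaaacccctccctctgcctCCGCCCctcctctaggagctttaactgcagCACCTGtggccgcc
Cldn5: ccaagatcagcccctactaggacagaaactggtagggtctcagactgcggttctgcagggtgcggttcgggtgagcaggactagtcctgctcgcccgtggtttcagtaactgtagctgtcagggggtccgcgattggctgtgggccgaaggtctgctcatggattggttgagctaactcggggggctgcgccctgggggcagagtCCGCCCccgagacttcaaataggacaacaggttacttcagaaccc
Cldn7: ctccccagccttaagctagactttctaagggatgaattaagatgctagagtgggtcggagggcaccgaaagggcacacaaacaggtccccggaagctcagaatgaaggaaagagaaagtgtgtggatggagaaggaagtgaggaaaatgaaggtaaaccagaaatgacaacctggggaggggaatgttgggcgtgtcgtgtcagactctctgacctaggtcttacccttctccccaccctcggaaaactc
Cldn18, upstream start: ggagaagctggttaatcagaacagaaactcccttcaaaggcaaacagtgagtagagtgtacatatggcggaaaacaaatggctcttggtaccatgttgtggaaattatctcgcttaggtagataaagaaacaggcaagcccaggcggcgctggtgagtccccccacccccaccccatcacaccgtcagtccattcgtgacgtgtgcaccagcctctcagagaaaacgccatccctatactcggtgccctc
Cldn18, downstream start: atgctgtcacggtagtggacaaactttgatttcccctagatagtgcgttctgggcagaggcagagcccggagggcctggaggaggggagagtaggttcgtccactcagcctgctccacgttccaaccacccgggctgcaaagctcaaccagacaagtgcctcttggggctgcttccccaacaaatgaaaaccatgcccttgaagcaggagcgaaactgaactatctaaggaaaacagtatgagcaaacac

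The AP-1 motif was in 1 of the 14 claudin windows, that of Cldn4, which is near its share among all 32851 windows of this length (6.75%). That window had 2 matches to it, 1 GC box and 1 E-box. The GC box was in 8 of the 14 claudin windows (32.7% of all windows), the E-box in 2 (17.2%) and the TATA box in 1, that of Cldn2 (12.4%). The 14 are not all separate: the windows of Cldn12 starts 2 and 3 overlap and hold the same GC box, counted in both. The Cldn18 windows and the Cldn7 window shown held none of the motifs searched, while the window of the other Cldn7 start, not shown, held 1 GC box and 2 matches to the E-box. The glucocorticoid response element was in none of the 14 (0.00913% of all windows). A match or its absence describes these letters only.

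Cldn18 made up nearly all claudin signal in the corpus. It took 94.1% to 95.8% of the counts on all claudin symbols in a library (median 95.1%). Scaled to exon length it was at 208 to 347 CPM per kilobase over the 16 libraries. Cldn12, a broadly expressed member, followed at 6.55 to 11.2 CPM per kilobase, and Cldn5, the claudin of endothelial junctions, at 1.37 to 3.32. These ranges did not overlap each other, nor did that of Cldn5 overlap that of Cldn7 (0.604 to 1.19). Below Cldn5 no neighbours in the order separated. Cldn7, Cldn3, Cldn23, Cldn4, Cldn1, Cldn2 and Cldn10 had means of 0.874, 0.642, 0.618, 0.437, 0.281, 0.224 and 0.209 CPM per kilobase, each overlapping the next in range. Cldn4 ran from 0.0234 to 1.67 CPM per kilobase over the 16 libraries.

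**Figure D1:**
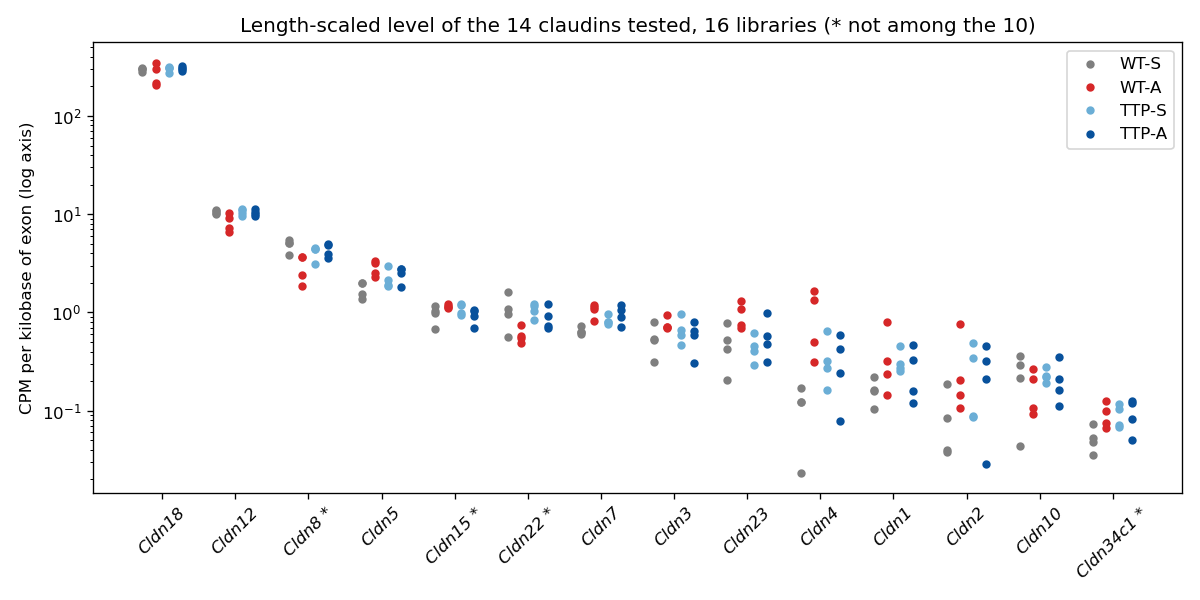
Level of the 14 claudins tested, as CPM per kilobase of exon on a log axis; each point is a library, coloured by group, and an asterisk marks claudins that are not among the 10. Cldn18 stands at 208 to 347 in all 16 libraries, and among the 10 the ranges of neighbours overlap from Cldn7 on.

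Of the other 22 claudin symbols, 9 had no count in any library and 4 passed the filter. Those 4 were Cldn8 (mean 4.06 CPM per kilobase), a barrier claudin of colon and distal nephron, Cldn15 (1.03), a pore-forming claudin of the small intestine, Cldn22 (0.901) and Cldn34c1 (0.0820). The exons of Cldn22 overlap those of Wwc2 and the exons of Cldn3 those of the antisense gene Wbscr25, both on the opposite strand. The strand setting of the counting is not given in the sources used here, so reads of such pairs may be mixed.

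In wild-type mice Cldn4, Cldn5 and Cldn7 rose in WT-A against WT-S and Cldn12 fell (edgeR quasi-likelihood test, adjusted p under 0.05 over 15385 genes). The other 6 genes, Cldn18 among them, were not called. The background was high: 18.8% of all genes tested were called in this comparison, 9.8% higher (1508 genes) and 8.99% lower (1383). Without scaling beyond the library total that split was 4260 to 482, and Cldn12 was not called (-0.18, adjusted p = 0.273) while Cldn23 was (1.13, adjusted p = 0.0408). The median log2 difference of the 10 was 0.71, beside 0.0094 for all genes tested, with 7 positive and 3 negative. In 3 of the 10 the CPM of the groups did not overlap, all higher in WT-A (9.2% of all genes were higher in this way and 8.48% lower). In the 14 libraries 10.5% of all genes were called, and 3 of the claudins, Cldn4, Cldn7 and Cldn1. With the squamous marker score as a covariate, or in a fit of only these groups, 1 of the 10 was called, which was Cldn4 in both, and the share of all genes called was also lower, at 4.7% and 3.98%. Limma voom called 6 of the 10 (19.5% of all genes). It added Cldn1, Cldn2 and Cldn23 (1.71, 2.65 and 1.33; adjusted p = 0.0247, 0.0429 and 0.0147) and not Cldn12 (-0.20, adjusted p = 0.101).

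**Figure D2:**
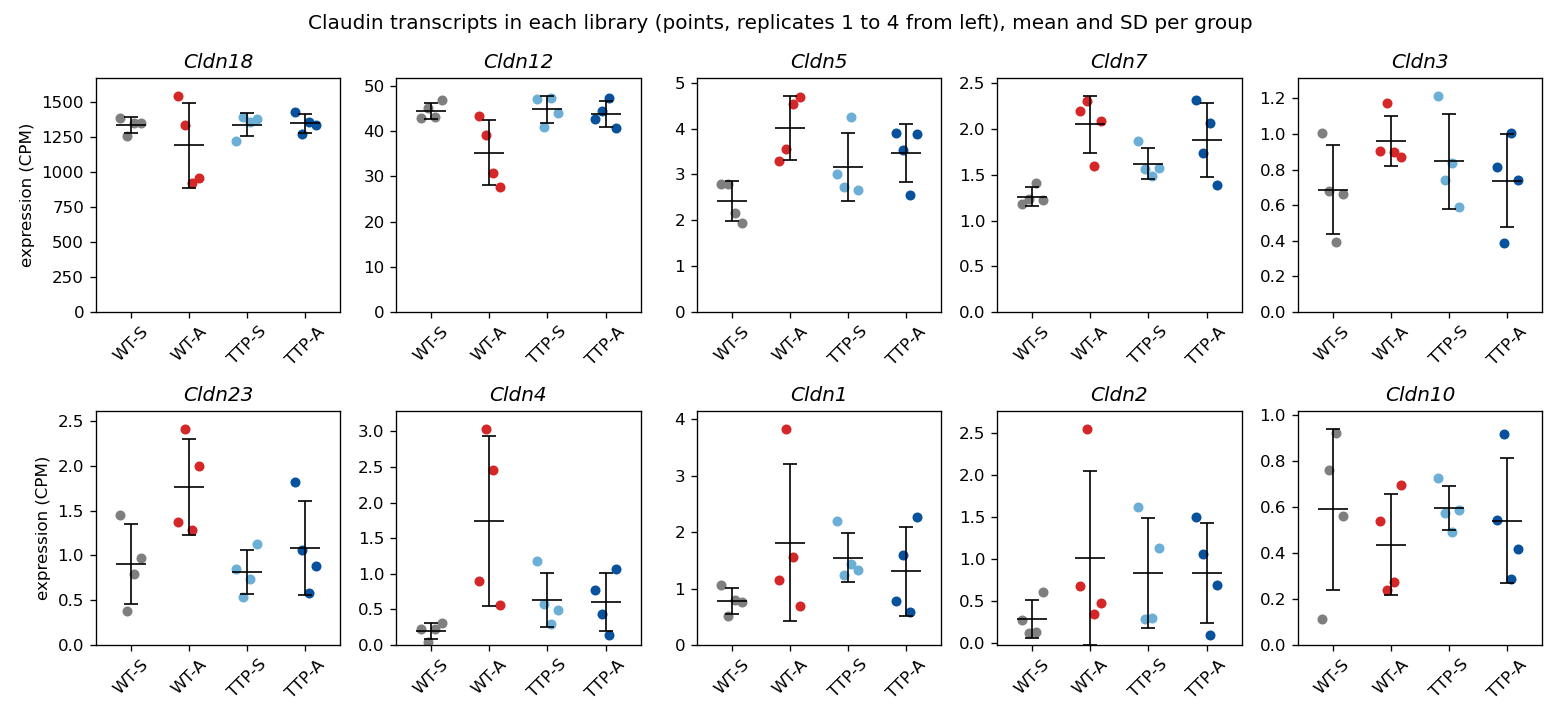
CPM of the 10 claudins in each library (points, in the order of replicate numbers) with the mean and SD of each group. Cldn18 and Cldn12 are lowest in WT-A 3 and WT-A 4, and the highest Cldn4, Cldn1 and Cldn2 values are those of WT-A 2.

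Cldn4, a sealing claudin that is also a receptor for a clostridial enterotoxin, showed the largest rise. The gene lies on the minus strand at chr5:134945119-134946934 (GRCm38). It was at 0.224, 0.0424, 0.220 and 0.307 CPM in WT-S 1 to 4 (1 to 6 counts) and at 0.902, 3.04, 2.46 and 0.565 CPM in WT-A 1 to 4 (13 to 88 counts). Every WT-A library was above every WT-S library, and WT-A 2 and WT-A 3 were well above the other pair. The means were 0.198 ± 0.111 and 1.74 ± 1.19 CPM (SD, n = 4 each), a log2 difference of 3.15 (SE 0.68, edgeR adjusted p = 0.00743; 14 libraries 3.32, adjusted p = 0.00976). Those same WT-A libraries, 2 and 3, had the highest squamous sums, 1413 and 783 CPM. With the squamous score as a covariate the difference was 1.69 (adjusted p = 0.0333), and without WT-A 2 it was 2.73 (adjusted p = 0.015).

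Among the genes whose pattern over the 16 libraries was closest to that of Cldn4 were Krt6b and Krt78. Krt6b is a keratin of stratified epithelium and one of the 15 squamous markers, and Krt78 is another keratin. Likeness was the root mean square distance of log2 CPM scaled to mean 0 and SD 1, which was 0.363 and 0.418 for these and had a median of 1.38 over 13351 candidates.

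Cldn7, a claudin of the lateral membrane that binds Epcam, rose by less than Cldn4. The gene lies on the plus strand at chr11:69964779-69967885. Its values were 1.18, 1.23, 1.41 and 1.23 CPM in WT-S and 2.20, 2.31, 1.599 and 2.09 CPM in WT-A. The groups did not overlap, and the lowest WT-A value was that of WT-A 3. The means were 1.26 ± 0.102 and 2.05 ± 0.314 CPM (SD, n = 4 each). The log2 difference was 0.70 (SE 0.18, edgeR adjusted p = 0.0167), and in the 14 libraries it was 0.84 (adjusted p = 0.0199). With the squamous score as a covariate the estimate hardly moved, at 0.71, but the call was lost (adjusted p = 0.0639), as it was without WT-S 2 (0.69, adjusted p = 0.0503). Epcam itself, an epithelial adhesion protein, rose by 0.46 (adjusted p = 0.0443; 14 libraries 0.64, adjusted p = 0.0227). The closest patterns to Cldn7 were those of Map4k4, a kinase, Cenpa, the histone of centromeres, and Cdc25b, a phosphatase of the cell cycle (distances 0.554, 0.583 and 0.592).

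Cldn5 is the main claudin of endothelium and part of the blood-brain barrier, and its gene lies on the plus strand at chr16:18776847-18778262. It was at 2.80, 2.80, 2.16 and 1.95 CPM in WT-S and at 3.28, 3.55, 4.53 and 4.70 CPM in WT-A. The groups did not overlap, and the 2 highest values belonged to WT-A 3 and WT-A 4. The means were 2.43 ± 0.440 and 4.01 ± 0.700 CPM (SD, n = 4 each). The log2 difference of 0.72 (SE 0.20, edgeR adjusted p = 0.0214) became 0.50 in the 14 libraries and was no longer called (adjusted p = 0.169). The call was also lost without WT-S 3, WT-S 4 or WT-A 3, with edgeR adjusted p up to 0.0662. The difference itself ran from 0.64 to 0.81 when single libraries were left out. Endothelial markers were present in every library: the 10 genes summed to 369 to 416 CPM in WT-S and to 364 to 464 CPM in WT-A, with none at 0. Of the 10, Pecam1, Cdh5 and Tie1 were called higher in WT-A, by 0.31 to 0.34 (adjusted p = 0.0101, 0.0157 and 0.0238), and none lower, beside 9.8% of all genes higher and 8.99% lower. In the 14 libraries, where 10.5% of all genes were called, none of these 3 was called (0.20, 0.17 and 0.16; adjusted p = 0.0764, 0.104 and 0.205), and the 1 endothelial marker called was Kdr, a receptor for vascular growth factors, which was lower (-0.36, adjusted p = 0.0482). Whether these markers account for Cldn5 was not tested. Fkbp10 and Pcolce, which act in collagen processing, and Tmem198b had the closest patterns to Cldn5 (distances 0.475, 0.511 and 0.518).

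Cldn12 fell in WT-A with all 16 libraries, and this call was absent without the pair set apart by GC content. Cldn12 (minus strand, chr5:5489537-5514958) lacks the tail motif by which most claudins bind scaffold proteins. It was at 42.9, 45.04, 43.0 and 46.8 CPM in WT-S and at 43.3, 39.1, 30.7 and 27.7 CPM in WT-A. WT-A 1 lay among the WT-S values and WT-A 3 and 4 well below them. The log2 difference of -0.33 (SE 0.11, edgeR adjusted p = 0.0439) was -0.10 in the 14 libraries (adjusted p = 0.382), and leaving out any single WT library except WT-A 1 or WT-A 2 also ended the call. Mier1, Rmnd5a and Fnbp1l had the closest patterns (distances 0.212, 0.236 and 0.245).

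Cldn18 (minus strand, chr9:99689461-99717267) showed the same split among the WT-A libraries. It was at 1386, 1256, 1348 and 1352 CPM in WT-S and at 1545, 1335, 925 and 956 CPM in WT-A, so that WT-A held both the highest and the lowest values of the 16 libraries. The log2 difference was -0.17 (SE 0.12, edgeR adjusted p = 0.344; 95% interval from -0.43 to 0.10), and in the 14 libraries it was 0.11 (adjusted p = 0.36). Without WT-A 1, the highest library, it was -0.32 and was called (adjusted p = 0.0297). In the TTPΔARE groups Cldn18 was at 1220 to 1393 CPM in TTP-S and 1269 to 1429 CPM in TTP-A. Arf6, Khdrbs1 and Phf10 had the closest patterns (distances 0.206, 0.226 and 0.236; median over candidates 1.43).

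Markers of the corpus lineages and of other tissues were also called in this comparison, in which 8.99% of all genes were lower and 9.8% higher. In the 14 libraries 10.5% of all genes were called in either direction. Of 8 parietal cell markers 5 were called lower in WT-A and none higher, with a median log2 of -0.45 (6 called in the 14 libraries). Of 6 chief cell markers 4 were called lower and 1 higher (6 called in the 14 libraries), and of 4 surface mucous markers none was called (median -0.33, all 4 negative; 1 called in the 14 libraries). Of 8 markers of mucous neck cells and SPEM 3 were called higher (median 0.79; 3 called in the 14 libraries). Their sum was 3508 CPM in WT-S 1, above every WT-A library (2926 to 3339 CPM), and 1145, 1392 and 1741 CPM in WT-S 2 to 4. Of 6 smooth muscle markers 4 were called higher (median 0.37; 1 called in the 14 libraries), and of 5 mesothelial markers 2 (median 0.58, up to 2.58; 1 called in the 14 libraries). General epithelial markers, 4 genes, were all positive and 2 were called higher (median 0.29, 2 called in the 14 libraries). Among 4 leukocyte markers tested, 1 was called higher and 1 lower (2 called in the 14 libraries). Whether these shifts bear on the claudin values was not tested.

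Cldn1, Cldn3 and Cldn23 are sealing claudins that did not reach the threshold in WT-A. Cldn1, the barrier claudin of the epidermis, was at 1.06, 0.509, 0.792 and 0.768 CPM in WT-S and at 1.15, 3.83, 1.56 and 0.696 CPM in WT-A. The groups overlapped and WT-A 2 stood above all others. The log2 difference was 1.23 (SE 0.50, edgeR adjusted p = 0.0886), 0.56 without WT-A 2 (adjusted p = 0.356), 0.20 with the squamous score as a covariate (adjusted p = 0.79) and 1.69 in the 14 libraries, where it was called (adjusted p = 0.0476), as it was without WT-A 1 or WT-A 4.

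Cldn23, a claudin of luminal gut epithelium, was at 1.46, 0.382, 0.792 and 0.973 CPM in WT-S and at 1.371, 2.415, 1.287 and 2.0 CPM in WT-A. WT-S 1 alone reached into the WT-A range. The log2 difference of 0.997 (SE 0.38) had an edgeR adjusted p of 0.074, and it was called without WT-S 1 (1.32, adjusted p = 0.0331) or without WT-A 1 (1.10, adjusted p = 0.0481). Cldn3, a close relative of Cldn4, was at 1.01, 0.679, 0.396 and 0.666 CPM in WT-S and at 0.902, 1.17, 0.897 and 0.870 CPM in WT-A (log2 0.50, SE 0.31, adjusted p = 0.245; 0.31 without WT-S 3).

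The pore-forming members had the lowest mean levels per length of the 10, overlapping Cldn1 in range. Cldn2, which forms channels for cations and water in leaky epithelia, was at 0.280, 0.127, 0.132 and 0.614 CPM in WT-S (3 to 12 counts) and at 0.686, 2.55, 0.351 and 0.478 CPM in WT-A. WT-A 2 alone stood far above WT-S. The log2 difference of 1.87 had an SE of 0.83 (edgeR adjusted p = 0.119), and without WT-A 2 it was 0.85 (adjusted p = 0.459). Cldn10, whose isoforms form cation or anion channels, was at 0.112, 0.763, 0.924 and 0.563 CPM in WT-S and at 0.541, 0.241, 0.273 and 0.696 CPM in WT-A (log2 -0.48, SE 0.47, adjusted p = 0.477; -0.79 without WT-S 1 and -0.18 without WT-S 3). At 2 to 21 counts of Cldn10 in a library, its 95% interval ran from -1.47 to 0.52.

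**Figure D3:**
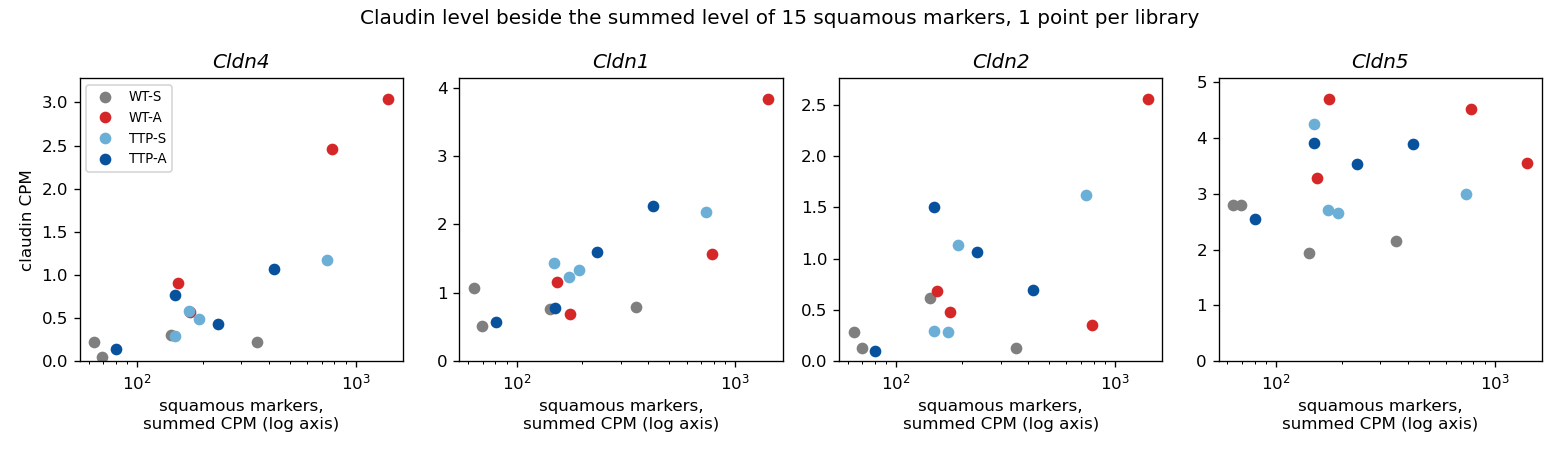
CPM of Cldn4, Cldn1, Cldn2 and Cldn5 (linear axes from 0) against the summed CPM of 15 squamous forestomach markers (log axis), 1 point per library. The right-most point is WT-A 2 at 1413 CPM of squamous markers, which also has the highest Cldn4, Cldn1 and Cldn2.

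Other junction genes were also called in WT-A, where 18.8% of all genes were (10.5% in the 14 libraries). Of 30 further tight junction genes, all tested, 3 rose and 2 fell, with a median log2 of 0.05. Those that rose were Tjp3 (0.31, edgeR adjusted p = 0.00936), the scaffold ZO-3, Lsr (0.19, adjusted p = 0.036), the angulin of corners where cells meet, and Epcam. Magi3, a scaffold (-0.39, adjusted p = 0.00337), and Jam2, an adhesion molecule of endothelium (-0.32, adjusted p = 0.033), fell. In the 14 libraries Epcam and Magi3 were still called (adjusted p = 0.0227 and 0.0217), while Tjp3 (0.26, adjusted p = 0.0505), Lsr (0.097, adjusted p = 0.276) and Jam2 (-0.32, adjusted p = 0.101) were not. Marveld2 (0.18, adjusted p = 0.0438), Cxadr (0.44, adjusted p = 0.0454) and Magi1 (-0.23, adjusted p = 0.0272) were called there instead. Ocln, which encodes occludin, was not called (-0.16, adjusted p = 0.12). Of 10 adherens junction genes 3 rose and none fell. They were Nectin1, an adhesion molecule (0.85, adjusted p = 0.00347; 14 libraries 0.96, adjusted p = 0.00358), its relative Nectin2 (0.18, adjusted p = 0.0255) and Jup, which encodes plakoglobin (0.24, adjusted p = 0.0162). The calls of Nectin2 and Jup were lost in the 14 libraries (0.14 and 0.19; adjusted p = 0.105 and 0.10). Of the further claudins Cldn8 fell (-0.75, adjusted p = 0.0204; 14 libraries -0.41, adjusted p = 0.147), as did Cldn22 (-0.86, adjusted p = 0.045; 14 libraries -0.998, adjusted p = 0.0934).

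In TTPΔARE mice none of the 10 claudins was called between TTP-A and TTP-S, where 2.9% of all genes were. None had an unadjusted p under 0.05 by edgeR. Neither DESeq2 nor limma voom called any of the 10 (5.61% and 15.2% of all genes). The median log2 difference was -0.02 (-0.001 for all genes), with 5 positive and 5 negative, and values ran from -0.25 to 0.42. Cldn4 was at 1.17, 0.576, 0.296 and 0.492 CPM in TTP-S and at 0.772, 0.435, 0.144 and 1.07 CPM in TTP-A, with full overlap. Its 95% interval ran from -1.41 to 1.23, and that of the WT difference from 1.70 to 4.59. Cldn7 was at 1.86, 1.56, 1.48 and 1.57 CPM in TTP-S and at 2.32, 1.74, 2.06 and 1.39 CPM in TTP-A (log2 0.21, SE 0.18, edgeR adjusted p = 0.664; leaving out TTP-A 1 gave 0.091 and leaving out TTP-A 4 gave 0.33). The 2 highest Cldn7 values were in TTP-A, but so was the lowest. Cldn5 was at 2.998, 2.72, 4.25 and 2.66 CPM in TTP-S and 3.91, 3.53, 2.55 and 3.89 CPM in TTP-A, overlapping fully (95% interval -0.27 to 0.55). Cldn12 was at 40.9 to 47.3 CPM in TTP-S and 40.7 to 47.3 CPM in TTP-A (95% interval -0.27 to 0.20), with none of the low values seen in WT-A 3 and WT-A 4. Cldn23 was at 0.851, 0.535, 0.741 and 1.13 CPM in TTP-S and at 1.82, 1.06, 0.576 and 0.880 CPM in TTP-A, a log2 difference of 0.42 (SE 0.40, edgeR adjusted p = 0.705), the largest of the 10. It rested on TTP-A 1, without which it was 0.051.

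Cldn1, Cldn2, Cldn3 and Cldn10 also overlapped between TTP-S and TTP-A. Cldn1 was at 2.19, 1.24, 1.43 and 1.33 CPM in TTP-S and at 0.772, 1.59, 0.576 and 2.27 CPM in TTP-A. Cldn2 was at 1.62, 0.288, 0.296 and 1.13 CPM in TTP-S and at 1.499, 1.06, 0.0960 and 0.695 CPM in TTP-A. Cldn3 was at 0.590 to 1.22 CPM in TTP-S and 0.387 to 1.01 CPM in TTP-A, and Cldn10 at 0.494 to 0.729 and 0.288 to 0.918 CPM. None of the 30 tight junction genes was called, the closest being Ocln (-0.24, adjusted p = 0.0803). In the 14 libraries Ocln was called (-0.24, adjusted p = 0.0245). The libraries left out there were of WT-A, so the TTP-S and TTP-A libraries compared were the same and the estimate did not move. The spread between libraries and the adjustment over all genes were computed anew in that fit. Its share of all genes called in this comparison is not given.

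**Figure D4:**
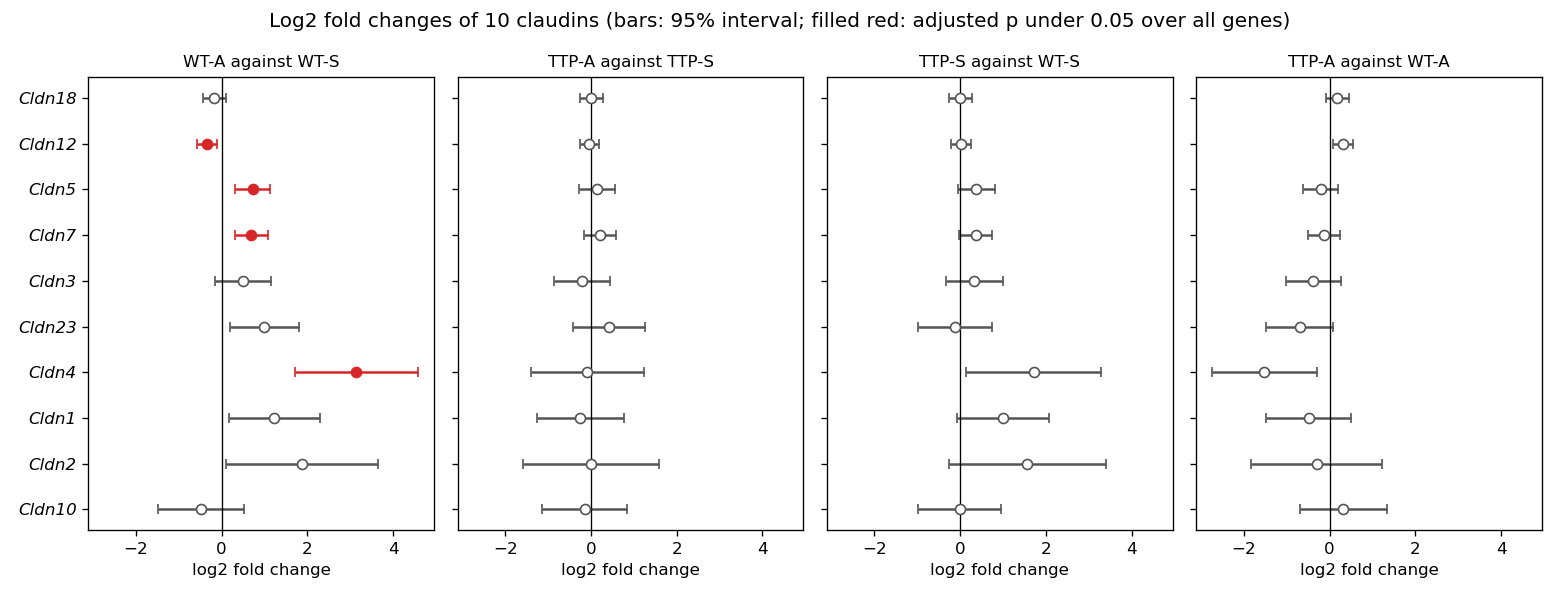
Log2 fold changes of the 10 claudins in the 4 pairwise comparisons, with bars for the 95% interval; filled red points passed an adjusted p of 0.05 over all genes. All 4 such points lie in the comparison of WT-A with WT-S.

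Whether the response to condition A differed between genotypes was tested as an interaction, the TTPΔARE difference minus the WT difference. None of the 10 was called (0.0585% of all genes were), while 2 had an unadjusted p under 0.05. The largest was Cldn4, at -3.23 (SE 0.93, edgeR adjusted p = 0.161), with a range of -3.65 to -2.75 when single libraries were left out. The DESeq2 Wald test called it (-3.23, adjusted p = 0.0396), beside 1.7% of all genes. Limma voom, which called 1.11% of all genes, did not call it (-3.17, adjusted p = 0.10). With the squamous score as a covariate it was -1.59 (adjusted p = 0.378). Cldn1 came next by unadjusted p (-1.48, SE 0.69, adjusted p = 0.327), and it was -0.81 without WT-A 2. By the edgeR test, then, the genotypes were not shown to differ in the response of any of the 10.

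In condition S no claudin was called between the genotypes. Between TTP-S and WT-S none of the 10 was called by edgeR (0.0325% of all genes were), and 1 had an unadjusted p under 0.05. Neither DESeq2 nor limma voom called any of the 10 (0.65% and 1.14% of all genes). This comparison shares the WT-S libraries with that of WT-A, so values are given side by side only. The log2 differences were 1.71 for Cldn4 (SE 0.74, edgeR adjusted p = 0.614), 1.57 for Cldn2 (SE 0.86, adjusted p = 0.743), 0.996 for Cldn1 (SE 0.50, adjusted p = 0.698), 0.38 for Cldn5, 0.36 for Cldn7 and 0.33 for Cldn3. Single libraries moved some of them: without TTP-S 1 the difference was 1.0 for Cldn2 and 0.095 for Cldn3, and without TTP-S 3 it was 0.20 for Cldn5. The CPM of Cldn1 and of Cldn7 in TTP-S did not overlap with WT-S, both higher, as was so for 3.5% of all genes. The squamous sums ran from 149 to 738 CPM in TTP-S and from 63.8 to 353 CPM in WT-S, and their part in these differences was not tested. Cldn18 and Cldn12 differed by 0.0029 and 0.011.

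In condition A none of the 10 was called between TTP-A and WT-A (5.17% of all genes were, and 1.81% in the 14 libraries). DESeq2 called none (10.6% of all genes), with no adjusted p for 4 of the 10 (Cldn2, Cldn3, Cldn4 and Cldn10). Limma voom called none either (5.17% of all genes), and 2 had an unadjusted p under 0.05 by edgeR. Those were Cldn12 (log2 0.31, SE 0.11, edgeR adjusted p = 0.0916; 14 libraries 0.083, adjusted p = 0.569) and Cldn4 (-1.52, SE 0.57, adjusted p = 0.11; 14 libraries -1.69, adjusted p = 0.14). Cldn4 was at 0.144 to 1.07 CPM in TTP-A and at 0.565 to 3.04 CPM in WT-A, so the groups overlapped. Without WT-A 1, Cldn4, Cldn12 and Cldn18 were called (-1.74, 0.43 and 0.33; adjusted p = 0.0459, 0.0132 and 0.0358), as were 20.8% of all genes. Among the 30 tight junction genes Jam2 (0.46, adjusted p = 0.0232) and Magi3 (0.36, adjusted p = 0.0158) were higher and Tjp3 (-0.25, adjusted p = 0.0493) lower in TTP-A, and none of these calls was made in the 14 libraries.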

How the data were processed

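The table deposited by the authors holds unnormalised read counts, whole numbers for each of 24964 gene symbols, and per the file headers has 1 column for each of the 16 libraries. STAR 2.7.0f, Subread 1.6.4 with its counter featureCounts, DESeq2 and mm10 are named, per the submitters' processing notes, without role or order. The annotation, the strand setting and any filter are not given in the sources used here.

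These counts went unchanged into edgeR 4.0.16 (R 4.3.3). Its filterByExpr function kept 15385 genes, TMM factors scaled the libraries, and all 16 entered 1 quasi-likelihood fit with the 4 groups as its terms. P-values were adjusted by Benjamini-Hochberg over all genes tested, and a call is an adjusted p under 0.05. CPM are counts per TMM-scaled library total as edgeR computes them, divided by the exon length of GENCODE M21 (GRCm38) where genes are compared. Each SE is the size of the log2 difference over the square root of F, and 95% intervals use the t quantile of the fit. Log2 CPM used a prior count of 2. The genes, lists and tests were chosen with earlier results of these data known. The naming rule took the 10 claudins, other claudins that passed the filter, called members of the junction lists, and the 3 closest patterns for Cldn18 and each claudin called, of which 1 is not reported here. Zfp36 was named to check the labels. Ocln, the endothelial and the squamous markers were named after their values were seen. Intervals and count ranges cover the spread of these libraries, and counts carry no molecular identifiers. The 24 pairs of libraries within groups all differed by more than counting noise. Alternatives were other scaling, filters and tests (DESeq2 1.42.0, limma 3.58.1), a fit of the compared groups, 14 libraries, the replicate number as a block, a squamous score as a covariate, and leaving out single libraries. The procedure was tested on simulated data.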

Additional observations from a re-analysis of the deposited data

Results flagged for a closer look

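In each group of 4 libraries the highest and the lowest CPM of each of the 10 claudins were set against the gap to the nearest other library, a check that chance alone passes in about 1 of 20 groups; 40 such groups were examined. Only 2 passed, the number that chance alone gives. They were both in WT-A. WT-A 2 stood apart for Cldn2, at 2.55 CPM against 0.351 to 0.686 CPM in the other WT-A libraries. It also stood apart for Cldn3, at 1.17 CPM against 0.870 to 0.902 CPM. The same library had the highest sum of squamous markers (1413 CPM). Its part in these values was not tested.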

How the results depend on the processing

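Under 10 alternatives, not counting single libraries left out, 46 of 49 counts of called claudins stayed within 1.5 times the value reported. There were 3 exceptions. The 4 claudins called in WT-A against WT-S became 1 in a fit of only the compared groups and 1 when the squamous score entered as a covariate. In the interaction the DESeq2 Wald test called 1, beside 1.7% of all genes. When single libraries were left out the WT-A count ran from 2 (without WT-S 2, WT-S 3, WT-S 4 or WT-A 3) to 7 (without WT-A 1), while the share of all genes called ran from 8.14% (without WT-S 2) to 32.4% (without WT-A 1). The count for TTP-A against WT-A ran from 0 to 3 (without WT-A 1, where 20.8% of all genes were called). Limma voom (6 called) and the fit with no filter on low counts (3 called) both lost Cldn12, with adjusted p of 0.101 and 0.0503. Signs turned in 4 values, none of them called: in the 14 libraries Cldn18 (0.11, WT-A against WT-S, and -0.098, TTP-A against WT-A) and Cldn5 (0.018, TTP-A against WT-A), and with the squamous covariate Cldn1 (0.096, TTP-A against WT-A). The last also turned without WT-A 2, with a range over single libraries of -0.90 to 0.19. The cause was not tested. Without scaling beyond the library total, the median of all genes between WT-A and WT-S moved to 0.16, with 4260 genes called higher and 482 lower, and Cldn4, Cldn5 and Cldn7 stayed called at 3.31, 0.86 and 0.85. Cldn4 kept its call in WT-A under every alternative run, with adjusted p from 0.000138 to 0.036. With the replicate number as a block, the same counts of claudins were called, 4 in WT-A and 0 in the others. The labels do not tie the numbers to a shared litter or day, and same-numbered libraries did not deviate together (correlation from -0.42 to 0.33, over 0.1 in 4 of 16 pairs). With 1 to 88 counts of Cldn4, 2 to 74 of Cldn2 and 2 to 21 of Cldn10 in a library, depth limits the precision of the scarce claudins.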
